A study of Mus musculus with 42 samples.

Results

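The receptors and Smads of bone morphogenetic protein (BMP) signaling were described here as 10 genes in mouse colon cells. They were the type I receptors Bmpr1a, Bmpr1b and Acvr1, the type II receptors Bmpr2, Acvr2a and Acvr2b, the receptor-regulated Smads Smad1, Smad5 and Smad9, and the common mediator Smad4. The genes were chosen by name and not by a cutoff on their values, with earlier results of these data known. They are 10 of the 19227 gene names held by 12 tables of RNA sequencing counts, and 8 of the 10 were listed in every table. Bmpr1b was listed only in the 4 tables of stromal cells, and Smad9 was listed in 7 tables.

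A BMP ligand brings type I and type II receptors together, the type II receptor phosphorylates the type I receptor, and the type I receptor phosphorylates Smad1, Smad5 or Smad9. The phosphorylated Smad joins Smad4 and enters the nucleus, where the Id genes are among the best known targets. Acvr2a and Acvr2b also bind activins, and Smad4 also serves TGF-β and activin signals. In the colon, stromal cells under the crypts make BMP ligands and BMP antagonists, and BMP signaling is known to oppose stem cell renewal in the epithelium above them.

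The study deleted Smad4 or Alk3 in the Gli1+ stromal cells of the mouse colon and asked what BMP signaling does there. Alk3 is the protein name of Bmpr1a, and the tables list it as Bmpr1a. Gli1-tdTomato+ stromal cells were sorted from Gli1-CreERT2;Rosa26-tdTomato control mice (GWTT), from mice that also carry Smad4 fl/fl (GS4T) and from mice that also carry Alk3 fl/fl (GA3T). Goblet cells, marked by Muc2-mCherry, came from the corresponding Gli1-CreERT2;Muc2-mCherry mice without a floxed gene (GWTM2), with Smad4 fl/fl (GS4M2) and with Alk3 fl/fl (GA3M2). All these mice, controls included, carry the Cre driven by Gli1 and received tamoxifen, and cells of the proximal and the distal colon were taken at day 30. The Cre acts in cells that express Gli1, so in the goblet cell mice deletion is expected in the stroma and not in the cells that were sequenced. Recombination in the sequenced goblet cells was not measured here. Each of these 12 groups has 2 libraries. It is not stated if a library is 1 mouse or several, or if both segments come from the same mice. Both knockouts were set against the same GWTT libraries, 2 per segment, and both goblet cell knockouts against the same GWTM2 libraries. The third system was organoids of wild-type mouse colon, grown with EGF, Noggin, R-spondin1, Wnt3a and CHIR, left untreated or given IL-1 (IL-1α and IL-1β) or IL-17A at 10 nM for 12 h or 72 h, with 3 libraries per group. Noggin is itself a BMP antagonist, and all organoid groups received it.

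Depth was 14222902 to 23686940 reads per library in Gli1-tdTomato+ cells, 15647603 to 20783127 in Muc2-mCherry+ cells and 14815170 to 17665812 in organoids. A normalized count below is a read count divided by the size factor that the authors computed within that table. The markers of the labelled cell types were checked first. The 9 stromal genes summed to between 42200 and 58568 RPM (reads scaled to a common library total) in the 12 libraries of Gli1-tdTomato+ cells and to between 14.1 and 21.1 in the control goblet cells. There 7 of the 9 were listed in the proximal and 3 in the distal group, and genes not listed counted as 0. Gli1 and Lum were listed in neither. The labels also call the tissue of the stromal cells an epithelium. The 5 epithelial markers summed to between 9.66 and 382 RPM in GWTT libraries, 539 to 1202 in GS4T and 321 to 758 in GA3T, and the 9 leukocyte markers to 184 to 543, 723 to 1461 and 544 to 1022. Gli1 itself was at 23.9 normalized counts in 1 of the 2 proximal GS4T libraries (1481 in the other) and at 34.7 in 1 of the 2 proximal GA3T libraries (1292 in the other), against 642 and 1597 in GWTT. Of the 42 libraries 40 were distinct, because 2 organoid control libraries labelled 72 h held the same reads as 2 labelled 12 h. In 3 organoid groups a pair of libraries was nearly identical. Libraries with and without Xist RNA were mixed within groups, and in proximal GWTT, both GA3T groups and both GWTM2 groups 1 of the 2 libraries had it.

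Per length, Bmpr1a and Smad4 were the most abundant members in Gli1-tdTomato+ control cells, and Bmpr1b and Acvr2b were the least. The level used here is RPKM, which divides RPM by the exon length in kilobases, given as the median of the 4 control libraries of both segments with their range. Bmpr1a stood at 30.1 (27.5 to 31.2) and Smad4 at 28.8 (26.5 to 30.4), which overlapped. Smad5 followed at 20.3 (19.4 to 20.4), Acvr1 at 19.8 (16.0 to 24.2) and Bmpr2, the main BMP type II receptor, at 15.4 (14.4 to 16.4). These also overlapped one with the next, but all of their libraries lay below those of Smad4. Smad1 (9.89, 7.44 to 11.7) and Acvr2a (9.44, 8.27 to 10.5) were not separated either, and Smad9 was lower at 4.66 (2.81 to 6.96). Acvr2b stood at 1.42 (0.813 to 1.92) and Bmpr1b at 0.407 (0.0945 to 0.952), below the lowest Smad9 library.

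Goblet cells had less Smad9, Bmpr2, Acvr1 and Smad5 than Gli1-tdTomato+ cells. In the 4 GWTM2 libraries Smad4 led at 37.2 RPKM (27.5 to 44.5), followed by Bmpr1a at 17.8 (15.5 to 19.4), Smad1 at 13.7 (12.4 to 16.8) and Smad5 at 10.3 (9.97 to 11.8). Acvr2a at 7.30, Acvr1 at 6.39, Bmpr2 at 4.69 and Acvr2b at 1.95 came next, Smad9 was at 0.126 (0.0422 to 0.246), and Bmpr1b was not listed. Fitted over both segments against GWTT (limma on log2 values, adjusted over all genes), 4 of 9 members tested passed an adjusted p of 0.05 with at least a 2-fold difference, where 44.2% of all genes did. All 4 were lower in goblet cells: Smad9 by a log2 difference of -5.31 ± 0.55 (SE, adjusted p = 6.0e-05), Bmpr2 by -1.91 ± 0.10 (adjusted p = 1.4e-06), Acvr1 by -1.80 ± 0.09 (adjusted p = 1.2e-06) and Smad5 by -1.14 ± 0.07 (adjusted p = 4.8e-06). At the adjusted p alone, passed by 73.5% of genes, Bmpr1a (-0.97 ± 0.08) and Acvr2a (-0.56 ± 0.11) were lower too, while Smad4 (0.12 ± 0.11), Smad1 (0.34 ± 0.15) and Acvr2b (0.34 ± 0.34) did not pass. Mouse line, sort and cell type cannot be told apart in this comparison.

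**Figure D1:**
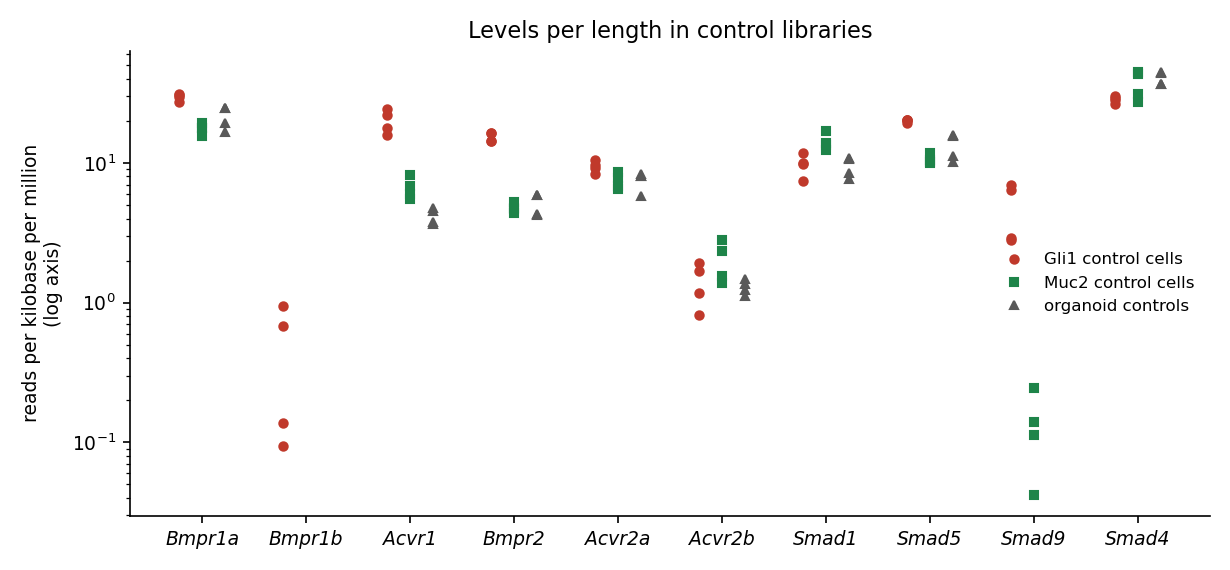
RPKM (log axis) for the 10 members in control libraries, 1 point per library: 4 of Gli1-tdTomato+ cells (circles), 4 of Muc2-mCherry+ cells (squares) and 4 distinct organoid controls (triangles). Smad9 lies between 2.81 and 6.96 in Gli1-tdTomato+ cells and at or below 0.246 in goblet cells, and it is not listed in organoids; Bmpr1b has points in Gli1-tdTomato+ cells only.

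In organoid controls Smad4 and Bmpr1a again came first. Over 4 distinct libraries Smad4 was at 40.3 RPKM (36.6 to 44.9), Bmpr1a at 22.0 (16.7 to 24.6), Smad5 at 13.4 (10.2 to 15.7) and Smad1 at 9.54 (7.72 to 10.8). Acvr2a was at 8.11, Bmpr2 at 5.10, Acvr1 at 4.16 and Acvr2b at 1.30. Neither Bmpr1b nor Smad9 was listed, and no test was made against the sorted cells.

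The first question for the knockouts was how far the deleted genes fell in the sorted stromal cells. Smad4 was 1604 and 1673 normalized counts in proximal GWTT and 705 and 835 in GS4T, and 1781 and 1703 in distal GWTT and 680.3 and 1171 in GS4T. Every GS4T library lay below every control, but the distal pair was spread widely. Smad4 fell by a log2 fold change of -1.09 ± 0.12 (SE) in the proximal colon (limma, adjusted p = 0.010) and of -0.96 ± 0.25 in the distal colon (adjusted p = 0.042), to 47.0% and 53.1% of the control mean. The reads that remain in a bulk sort can be lower in fewer cells or in each cell, which cannot be told apart here, and which exons the floxed alleles remove is not given in the sources used here. Without proximal GS4T library 2, which had little Gli1, Smad4 was at -1.21 (adjusted p = 0.045), and without proximal GS4T library 1 at -0.97 (adjusted p = 0.077). Without distal GS4T library 2 it was at -1.35 (adjusted p = 0.0043), and without distal GS4T library 1 at -0.57 (adjusted p = 0.036). The distal value missed the threshold without either control library (-0.93, adjusted p = 0.16, without GWTT library 1 and -0.996, adjusted p = 0.14, without library 2) and with edgeR (-0.93, adjusted p = 0.059).

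Bmpr1a was lower in every GA3T library, and the difference did not pass the test. It read 2960.0 and 3220.2 in proximal GWTT and 2233 and 1842 in GA3T, and 3359 and 3485 in distal GWTT and 2203 and 2043 in GA3T. The groups did not overlap in either segment, and the GA3T means were 65.9% and 62.0% of control. The log2 fold changes were -0.61 ± 0.14 (limma, adjusted p = 0.12) and -0.69 ± 0.11 (adjusted p = 0.10). With the spread taken from all 12 Gli1-tdTomato+ libraries the adjusted p were 0.016 and 0.039, and with DESeq2 0.012 and 0.00053. Without proximal GA3T library 2, which had little Gli1, the value was -0.47 (adjusted p = 0.32). The 290 exon bases that Bmpr1a shares with Gm17110 on the other strand, of 6046, could not be separated, since the strand setting of the counting is not given in the sources used here.

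Each deleted gene was also read in the other knockout. In GA3T cells Smad4 was 1571 and 1864 in the proximal colon (log2 fold change -0.01 ± 0.13, limma adjusted p = 0.98) and 1544 and 1688 in the distal colon (-0.30 ± 0.11, adjusted p = 0.25), where both libraries lay below the controls at 2031 and 1938. In GS4T cells Bmpr1a was 2722 and 3008 in the proximal colon against 2813 and 3063 (-0.04 ± 0.11, adjusted p = 0.84), and 2545 and 2527 in the distal colon against 2944 and 3062 (-0.24 ± 0.10, adjusted p = 0.13). Set directly against each other over all 12 libraries, GS4T minus GA3T, the log2 difference of Smad4 was -1.08 ± 0.22 in the proximal colon (adjusted p = 0.14) and -0.65 ± 0.22 in the distal colon (adjusted p = 0.14). That of Bmpr1a was 0.57 ± 0.11 (adjusted p = 0.14) and 0.46 ± 0.11 (adjusted p = 0.067). None of these passed.

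**Figure D2:**
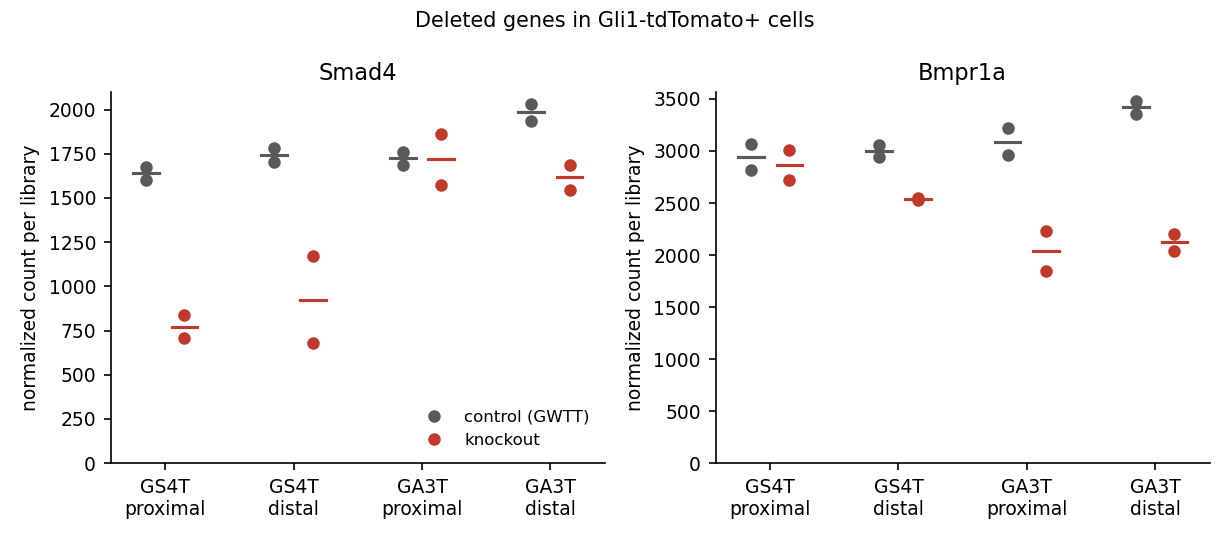
Normalized counts of Smad4 (left) and Bmpr1a (right) in Gli1-tdTomato+ cells, 1 point per library and a bar at the mean of 2, for each knockout beside its control in the same table. Smad4 is at 680.3 to 1171 in GS4T and at or above 1544 in the other libraries, and Bmpr1a is at 1842 to 2233 in GA3T and at or above 2527 in the others.

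Smad4, Acvr2a and Smad9 fell in both segments of GS4T, and Smad1 rose in the distal colon. In proximal GS4T, 2 of 10 members passed the adjusted p with at least a 2-fold change (Smad4 and Acvr2a, both lower), where 9.61% of 15319 genes did. At the adjusted p alone 3 passed (Smad9 in addition), where 15.6% of genes did. In distal GS4T only Smad9 passed both thresholds (1 of 10, against 14% of 15262 genes), and 4 passed the adjusted p alone (Smad4, Acvr2a and Smad9 lower, Smad1 higher), against 23.2%. In GA3T no member passed in either segment, where 0.358% of 15346 genes were called in the proximal colon and 0% in the distal colon. For distal GA3T, limma called 0 genes, edgeR 0 and DESeq2 776, and 1197 genes had an unadjusted p under 0.05 with at least a 2-fold change.

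Members whose groups did not overlap were counted next. Every library was higher in 4 members and lower in 3 in proximal GS4T (34% and 31.4% of all genes), and higher in 4 and lower in 4 in distal GS4T (34.4% and 33.1%). In GA3T the counts were 2 and 3 in the proximal colon (28.8% and 27.5%) and 1 and 5 in the distal colon (27.5% and 26.8%). On RPM, 4 members instead of 3 were lower in proximal GS4T (Bmpr2 in addition) and 6 instead of 5 in distal GA3T (Smad5 in addition). The shares of all genes above are on normalized counts, and those on RPM were not computed. Acvr2a and Smad9 were lower in every knockout library of all 4 comparisons, and Bmpr1b was higher in 3 and lower in 1. The share of all genes lower in all 4 was not computed, so these counts are a description only. The median log2 fold change of the 10 members was 0.01 and -0.01 in GS4T and -0.01 and -0.41 in GA3T, beside 0.02, 0.00, 0.01 and 0.01 over all genes tested. The 2 knockouts share their control libraries, so these values are given side by side and no overlap between them was tested.

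**Figure D3:**
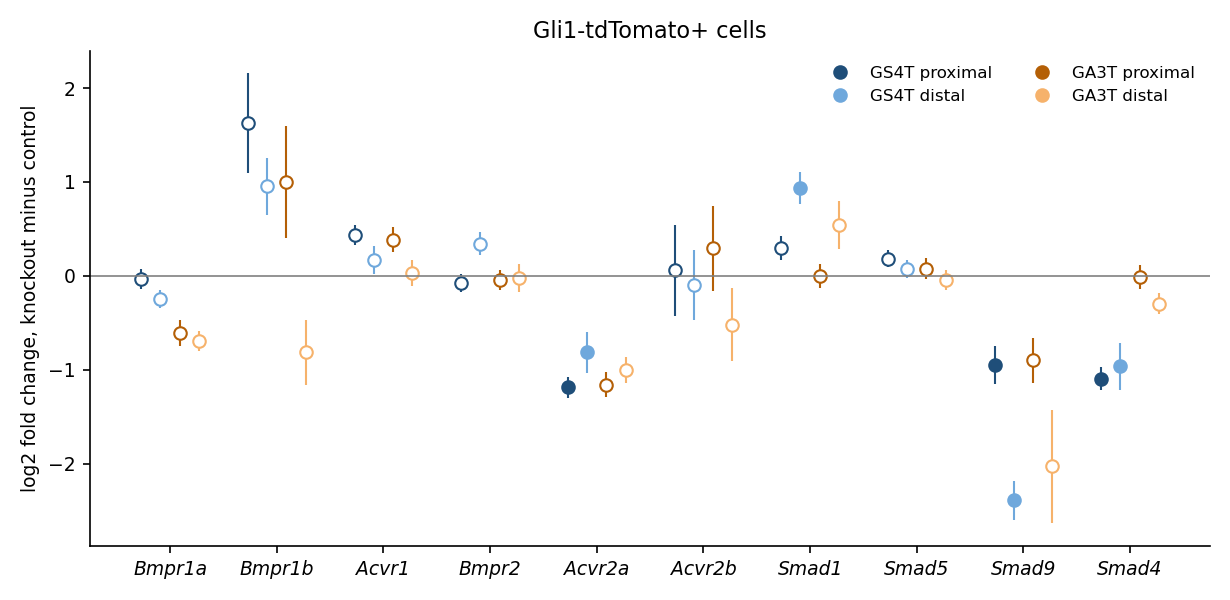
Log2 fold change of each member, knockout minus control, in Gli1-tdTomato+ cells of 4 comparisons, with bars of 1 SE from limma (2 libraries against 2); filled points have an adjusted p under 0.05. Acvr2a lies between -1.19 and -0.81 and Smad9 between -2.39 and -0.90 in all 4 comparisons, and the Smad4 points are filled in GS4T.

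Of the type I receptors other than Bmpr1a, Bmpr1b had the fewest reads. It is best known from cartilage and the ovary. It read 9.31 and 13.3 in proximal GWTT, 30.4 and 43.9 in GS4T, and, in the table of the other knockout, 9.79 and 14.0 in GWTT and 19.0 and 31.4 in GA3T. In the distal colon it read 64.5 and 90.0 in GWTT and 164 and 135 in GS4T, and 73.6 and 102 in GWTT and 45.1 and 53.2 in GA3T. All knockout libraries were thus above their controls except those of distal GA3T, which were all below. The log2 fold changes were 1.63 ± 0.53 (limma, adjusted p = 0.099) and 0.96 ± 0.30 (adjusted p = 0.071) in GS4T and 1.0 ± 0.59 (adjusted p = 0.39) and -0.81 ± 0.35 (adjusted p = 0.30) in GA3T. None passed, and with the spread of all 12 libraries the proximal GS4T value passed (1.62, adjusted p = 0.019).

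Bmpr1b was higher in the distal than in the proximal control cells. In GWTT the log2 difference, proximal minus distal, was -2.69 ± 0.38 (limma over all 12 libraries, adjusted p = 0.011), and it was the only member called in that contrast, where 1.33% of 15206 genes were. Proximal GWTT held 0.0945 and 0.138 RPKM and distal GWTT 0.676 and 0.952. The call was lost without distal GWTT library 1 (-2.93, adjusted p = 0.082), distal library 2 (-2.46, adjusted p = 0.099) or proximal library 1 (-2.45, adjusted p = 0.058). Smad9 had the next largest segment difference, -1.21 ± 0.49 (adjusted p = 0.28), with 255 and 257 normalized counts in the proximal and 566 and 607 in the distal control libraries of the GS4T tables. It passed without either distal GA3T library (adjusted p = 0.040 and 0.036).

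Acvr1, the type I receptor also called Alk2, lay above control in both knockouts of the proximal colon, without passing the test. It read 1085 and 961 in GWTT against 1371 and 1388 in GS4T (0.43 ± 0.11, limma adjusted p = 0.056), and 1141 and 1011 against 1307 and 1509 in GA3T (0.39 ± 0.13, adjusted p = 0.20). The proximal groups did not overlap. In the distal colon they did, at 1309 and 1429 against 1364 and 1736 in GS4T (0.17 ± 0.15, adjusted p = 0.44) and 1494 and 1626 against 1448 and 1748 in GA3T (0.03 ± 0.14, adjusted p = 0.92).

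Acvr2a, a type II receptor for activins and several BMPs, was the type II receptor that changed. It lies on chromosome 2 (GRCm38, chr2:48814109-48903269, plus strand). In proximal cells it read 933 and 994 in GWTT and 418 and 428 in GS4T, and 981 and 1045 in GWTT and 483 and 426 in GA3T. In distal cells it read 857 and 764 in GWTT and 371 and 569.5 in GS4T, and 977 and 869 in GWTT and 486 and 436 in GA3T. No knockout library reached a control library in any of the 4 comparisons. Acvr2a fell in GS4T by -1.19 ± 0.11 in the proximal colon (limma, adjusted p = 0.0074) and by -0.81 ± 0.22 in the distal colon (adjusted p = 0.048). In GA3T the log2 fold changes were -1.16 ± 0.13 (adjusted p = 0.0615) and -1.0 ± 0.14 (adjusted p = 0.095), which did not pass. Its level was 43.9% and 58.1% of control in GS4T and 44.8% and 49.9% in GA3T.

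With each library left out in turn, Acvr2a ranged from -1.23 to -1.14 in proximal and -1.12 to -0.51 in distal GS4T, and from -1.25 to -1.07 in proximal and -1.09 to -0.92 in distal GA3T. The proximal GS4T value was -1.20 without library 2, which had little Gli1 (adjusted p = 0.054), and -1.17 without library 1 (adjusted p = 0.074), and the proximal GA3T value was -1.07 without the library with little Gli1 (adjusted p = 0.15). The distal GS4T value was -0.51 without GS4T library 1 (adjusted p = 0.077) and -1.12 without library 2 (adjusted p = 0.011). With DESeq2 it passed both thresholds in both GA3T segments (adjusted p = 1.5e-07 and 9.0e-05). Orc4, which lies on the opposite strand and shares 446 of the 5686 exon bases of Acvr2a, had log2 fold changes of -0.13, -0.10, 0.01 and -0.03 (adjusted p between 0.50 and 0.99).

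The other type II receptors gave no call. Bmpr2 is the receptor mutated in heritable pulmonary arterial hypertension and the most abundant of the 3 in these cells. It read 3571 and 3516 in proximal GWTT against 3214 and 3523 in GS4T (-0.07 ± 0.10, limma adjusted p = 0.64), and 3757 and 3696 against 3512 and 3744 in GA3T (-0.04 ± 0.11, adjusted p = 0.86). In the distal colon it read 3039 and 3028 in GWTT against 3513 and 4226 in GS4T (0.34 ± 0.12, adjusted p = 0.10) and 3467 and 3446 against 3014 and 3854 in GA3T (-0.02 ± 0.15, adjusted p = 0.95). Only the distal GS4T libraries stood apart from their controls. Acvr2b, the closest relative of Acvr2a, had between 48.2 and 128 normalized counts over the 12 libraries, with all groups overlapping and log2 fold changes of 0.06, -0.10, 0.30 and -0.52 (limma, adjusted p = 0.945, 0.87, 0.74 and 0.51). The SE of these values lay between 0.37 and 0.48, against 0.11 to 0.22 for Acvr2a.

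Smad9, also called Smad8, is a BMP-activated Smad like Smad1 and Smad5, and it had the largest fall of the members. It lies on chromosome 3 (GRCm38, chr3:54755582-54801257, plus strand). It read 566 and 607 in distal GWTT and 96.5 and 128 in GS4T, and 255 and 257 in proximal GWTT and 122 and 145 in GS4T. In the other tables it read 646 and 691 in distal GWTT and 316 and 84.0 in GA3T, and 269 and 270.4 in proximal GWTT and 168 and 123 in GA3T. Every knockout library was below every control, and the distal GA3T libraries lay far apart. Smad9 fell in distal GS4T by -2.39 ± 0.21 (limma, adjusted p = 0.0021), to 19.1% of control, and this call held in every alternative fit and without each single library (-2.59 to -2.19). In proximal GS4T it fell by -0.94 ± 0.20 (adjusted p = 0.040), to 51.9% of control, and this was lost without either GS4T library (adjusted p = 0.19 without library 1 and 0.13 without library 2).

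In GA3T the fold changes of Smad9 had the same sign and did not pass. They were -0.90 ± 0.24 in the proximal colon (limma, adjusted p = 0.14) and -2.03 ± 0.60 in the distal colon (adjusted p = 0.19), at 54.1% and 29.9% of control. The distal value was -2.98 without distal GA3T library 1 (adjusted p = 0.0073) and -1.08 without library 2 (adjusted p = 0.094). Of the 2 distal GA3T libraries library 1 had no Xist RNA, while library 2 and both controls had it. The difference between the segments was 1.43 ± 0.69 in GS4T (proximal minus distal, adjusted p = 0.61) and 1.12 ± 0.69 in GA3T (adjusted p = 0.82), so that Smad9 was not shown to change more in 1 segment than in the other.

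Acvr2a and Smad9 were the members lower in all knockout libraries that were not deleted themselves, so the 250 bases before their start sites are printed, on the plus strand of GRCm38.p6 as given by RefSeq. Capitals mark matches on either strand to 3 motifs. The motif GGCGCC and the motif GGAGCC, which reads GGCTCC on the other strand, are bound by BMP Smads, and the motif CAGACA, which reads TGTCTG on the other strand, is bound by Smad4.
Acvr2a chr2:48813859-48814108: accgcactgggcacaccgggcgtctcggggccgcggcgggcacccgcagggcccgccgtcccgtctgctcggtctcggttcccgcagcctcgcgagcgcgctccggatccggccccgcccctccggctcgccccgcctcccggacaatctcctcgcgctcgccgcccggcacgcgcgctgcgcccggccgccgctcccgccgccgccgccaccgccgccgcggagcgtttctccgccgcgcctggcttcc
Smad9 chr3:54755332-54755581: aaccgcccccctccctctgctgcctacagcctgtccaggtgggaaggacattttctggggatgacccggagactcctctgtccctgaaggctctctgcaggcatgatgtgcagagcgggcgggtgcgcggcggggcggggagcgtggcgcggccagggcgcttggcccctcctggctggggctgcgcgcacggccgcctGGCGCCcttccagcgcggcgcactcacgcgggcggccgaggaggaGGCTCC

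The Acvr2a window holds no match, and the Smad9 window holds 1 GGCGCC and 1 GGCTCC. Over 32851 promoter windows of this length 9.59% hold GGCGCC, 26% GGAGCC and 17.1% CAGACA. Of the 13 start sites of the 9 members in that collection, 4 hold GGCGCC, 6 hold GGAGCC and 1 holds CAGACA. The windows of the members had 46.8% to 85.6% G and C, beside a median of 52.4% over all windows. Some windows of Bmpr1b and of Smad5 overlap and count more than once. Windows of like base content were not compared, so no enrichment is read from these counts. The matches are of letters, and binding was not measured.

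Smad1 went the other way in distal GS4T. It read 828 and 625 in GWTT and 1273 and 1483 in GS4T, with no overlap. Smad1 rose by 0.93 ± 0.17 (limma, adjusted p = 0.016), to 190% of control, and was 0.73 without distal GWTT library 2 (adjusted p = 0.085). In proximal GS4T it read 876 and 1006 against 1079.9 and 1238 (0.30 ± 0.13, adjusted p = 0.18). In GA3T it read 921 and 1058 against 956 and 1015 in the proximal colon (-0.00 ± 0.13, adjusted p = 0.99) and 945 and 712 against 959 and 1486 in the distal colon (0.54 ± 0.26, adjusted p = 0.33), where the lower GA3T library lay just above the higher control. The segment difference was -0.65 ± 0.30 in GS4T (adjusted p = 0.59).

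Smad5, the most abundant receptor-regulated Smad in these cells, gave no call. Over the 4 comparisons its log2 fold changes were 0.18 ± 0.09, 0.07 ± 0.10, 0.08 ± 0.11 and -0.05 ± 0.11 (limma, adjusted p = 0.23, 0.635, 0.73 and 0.84). The proximal GS4T libraries at 2796 and 2638 were above GWTT at 2354 and 2426, and the distal ones at 2495 and 2504 were above 2398 and 2363. GA3T libraries overlapped their controls in both segments. Smad5 shares 100 of its 7174 exon bases with Gm27301.

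**Figure D4:**
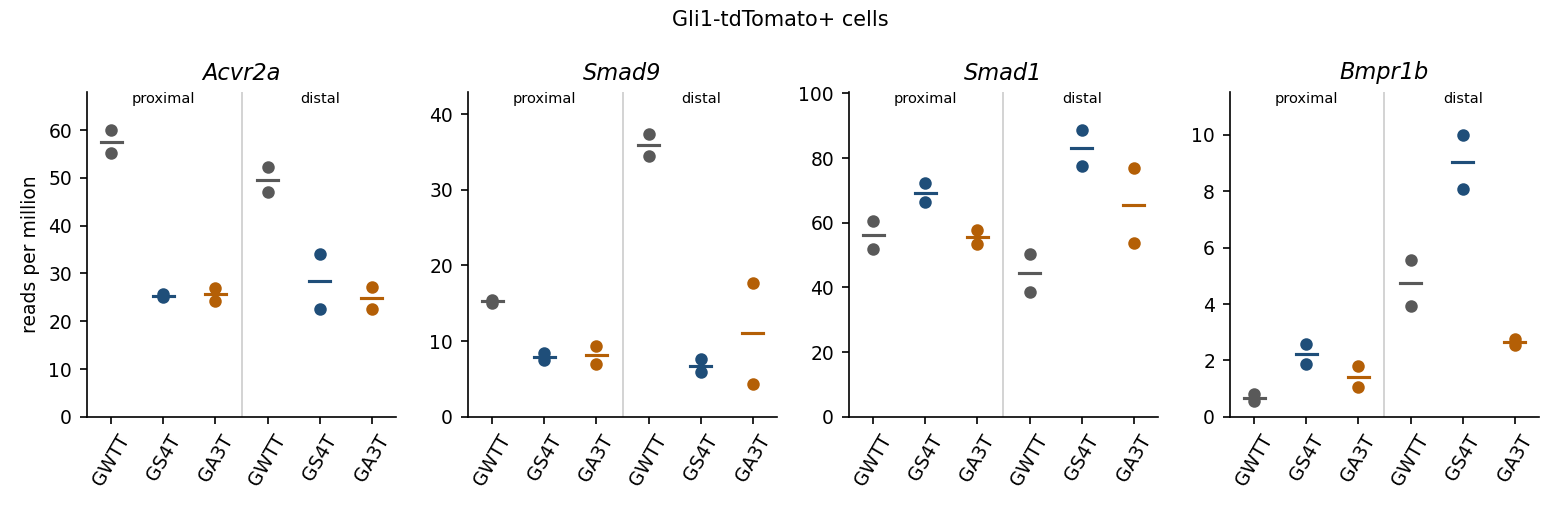
RPM of Acvr2a, Smad9, Smad1 and Bmpr1b in Gli1-tdTomato+ cells of the 6 groups, 1 point per library and a bar at the mean of 2. Acvr2a is lower in all 8 knockout libraries, Smad9 drops from its distal control level, Smad1 is highest in distal GS4T, and Bmpr1b is highest in distal GS4T and lowest in proximal GWTT.

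Differences between segments and between knockouts were tested over all 12 Gli1-tdTomato+ libraries. No member passed for the segment difference of the GS4T effect, where 0.0526% of 15206 genes did, or for that of the GA3T effect, where 0% did (limma called 0 genes and edgeR 0, and 511 had an unadjusted p under 0.05 with at least a 2-fold difference). The member with the smallest p there was Bmpr1b in GA3T, at 1.81 ± 0.54 (proximal minus distal, adjusted p = 0.46). Between GS4T and GA3T no member passed in the proximal colon, where 0.0855% of genes did, and Bmpr1b passed in the distal colon at 1.78 ± 0.38 (adjusted p = 0.045), where 2.04% did. For Acvr2a the difference between the knockouts was -0.03 ± 0.19 and 0.20 ± 0.19, and for Smad9 -0.04 ± 0.49 and -0.35 ± 0.49. Neither passed, with the wider interval in Smad9.

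The other genes of the pathway were taken from lists written from general knowledge of BMP signaling. The counts of each list in GS4T stand beside the share of all genes that passed the adjusted p (15.6% in proximal GS4T and 23.2% in distal GS4T). Among 13 BMP feedback and target genes tested in proximal GS4T, 1 rose and 5 fell, and in distal GS4T 1 rose and 6 fell. The median log2 fold change of this list was -0.89 and -0.75, beside 0.02 and 0.00 over all genes. Id genes, which encode inhibitors of helix-loop-helix factors, made up most of the falls. Id2 read 1993 and 1487 in proximal GWTT and 611 and 547 in GS4T (-1.57 ± 0.17, limma adjusted p = 0.0093). Id4 went from 321 and 404 to 41.5 and 74.8 (-2.67 ± 0.35, adjusted p = 0.014) and Id3 from 5393 and 4604 to 2414 and 2755 (-0.95 ± 0.13, adjusted p = 0.015), while Id1 was 313 and 414 against 218 and 295 (-0.51 ± 0.24, adjusted p = 0.20). In the distal colon all 4 fell: Id1 by -1.48 ± 0.24 (adjusted p = 0.011), Id2 by -1.06 ± 0.19 (adjusted p = 0.015), Id3 by -1.09 ± 0.13 (adjusted p = 0.0049) and Id4 by -2.85 ± 0.30 (adjusted p = 0.0035).

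The other feedback genes did not move as 1 group. Bambi, a decoy receptor without a kinase, fell by -1.55 ± 0.26 (limma, adjusted p = 0.024) and -1.42 ± 0.30 (adjusted p = 0.024) in proximal and distal GS4T, and Tmem100 fell by -1.46 ± 0.13 in the proximal colon (adjusted p = 0.0067) and Hey1 by -1.10 ± 0.26 in the distal colon (adjusted p = 0.034). Smad6, an inhibitory Smad, rose in proximal GS4T from 408 and 407 to 729 and 621 (0.72 ± 0.14, adjusted p = 0.0305) and was -0.30 ± 0.15 in the distal colon (adjusted p = 0.195). Smad7, the other inhibitory Smad, was at -0.40 ± 0.14 (adjusted p = 0.11) and -0.04 ± 0.16 (adjusted p = 0.87). Grem1, an antagonist that is on the antagonist list too, rose in distal GS4T by 2.04 ± 0.14 (adjusted p = 0.0013). Epithelial and leukocyte markers were higher in the same GS4T libraries, as given above, and their part in these changes was not tested.

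In GA3T no gene of the target list passed in either segment, though its median was -0.87 and -0.89. In the proximal colon Id2 was at -1.5 ± 0.21 (limma, adjusted p = 0.073), Id3 at -1.30 ± 0.20 (adjusted p = 0.0735), Id4 at -1.94 ± 0.27 (adjusted p = 0.070) and Bambi at -1.32 ± 0.22 (adjusted p = 0.083). Id1 was at -0.18 ± 0.20 (adjusted p = 0.63), Smad6 at 0.40 ± 0.13 (adjusted p = 0.18) and Smad7 at -0.38 ± 0.14 (adjusted p = 0.22). In the distal colon Id1 read 829 and 217 against 685 and 909 in GWTT, so that 1 of the 2 GA3T libraries lay between the controls. That was the library with the higher Smad9 level too. Distal Id2 was at -1.12 ± 0.20 (adjusted p = 0.11), Id3 at -0.92 ± 0.24 (adjusted p = 0.17), Id4 at -1.88 ± 0.55 (adjusted p = 0.19), Bambi at -0.77 ± 0.25 (adjusted p = 0.215), Smad6 at -0.26 ± 0.18 (adjusted p = 0.48) and Smad7 at -0.02 ± 0.16 (adjusted p = 0.95).

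Among BMP ligands, Bmp3, Bmp5 and Bmp7 rose in both knockouts of the proximal colon. The median log2 fold change of the ligands tested was 0.18 in proximal GS4T and 0.80 in proximal GA3T. In proximal GS4T 4 of 9 ligands tested rose and 1 fell, and in proximal GA3T 3 of 10 rose and none fell, where 0.358% of 15346 genes were called. Both knockouts share their proximal controls, and 1 proximal library of each had little Gli1. Values of the ligands without that library are not given here. Bmp7 rose by 2.62 ± 0.24 in GS4T (limma, adjusted p = 0.0068) and by 3.35 ± 0.19 in GA3T (adjusted p = 0.035), Bmp3, which can oppose other BMPs, by 1.80 ± 0.23 (adjusted p = 0.013) and 2.77 ± 0.25 (adjusted p = 0.0496), and Bmp5 by 1.23 ± 0.24 (adjusted p = 0.032) and 1.5 ± 0.11 (adjusted p = 0.049). The GA3T calls depended on the test: in proximal GA3T edgeR called 0 genes, where 1453 had an unadjusted p under 0.05 with at least a 2-fold change, and DESeq2 called 969, and the edgeR adjusted p was 0.062 for each of Bmp3, Bmp5 and Bmp7. Bmp8b had no reads in either control and 93.4 ± 19.3 normalized counts (SD, n = 2) in GS4T, and Gdf6 fell in GS4T by -1.98 ± 0.31 (adjusted p = 0.020). In distal GS4T 2 ligands rose and 2 fell of 9. Bmp7 rose by 1.27 ± 0.11 (adjusted p = 0.0022), Bmp8b went from no reads to 109 ± 65.8 (SD, n = 2), Bmp6 fell by -1.60 ± 0.11 (adjusted p = 0.0014), and Bmp4 fell by -0.96 ± 0.15 (adjusted p = 0.0097).

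Antagonists changed in both directions in GS4T, and the coreceptors that passed the test were lower. Of 13 antagonists tested 3 rose and 2 fell in the proximal colon, and 4 rose and 3 fell in the distal colon. Chrdl2 rose by 4.66 ± 0.39 (limma, adjusted p = 0.0063) and 3.75 ± 0.25 (adjusted p = 0.0012) and Bmper by 1.41 ± 0.13 (adjusted p = 0.0071) and 2.77 ± 0.26 (adjusted p = 0.0024), whereas Chrdl1, a relative of chordin like Chrdl2, fell by -2.97 ± 0.29 (adjusted p = 0.0076) and -2.92 ± 0.22 (adjusted p = 0.0016). Fst, which binds activins, rose in the distal colon (1.77 ± 0.40, adjusted p = 0.029). Of 8 coreceptors and modulators none rose and 3 and 4 fell, among them Rgmb by -2.28 ± 0.16 (adjusted p = 0.0052) and -1.22 ± 0.20 (adjusted p = 0.0105). Bambi, given above with the target genes, is on this list too, so its fall is counted in both lists. Of 13 regulators of Smads 1 rose and 1 fell in the proximal colon and 1 rose and 2 fell in the distal colon, where Zfp423 was called (-1.07 ± 0.21, adjusted p = 0.019). That is 2 and 3 of 13, beside 15.6% and 23.2% of all genes.

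The TGF-β and activin branch, which shares Smad4 with the BMP branch, held more genes that rose than fell in GS4T. Of 11 genes tested in the proximal colon 6 rose and 1 fell, and of 10 in the distal colon 6 rose and 2 fell, beside 15.6% and 23.2% of all genes that passed in either direction. Inhba and Inhbb, which encode activin subunits, rose by 4.78 ± 0.28 (limma, adjusted p = 0.0038) and 3.64 ± 0.23 (adjusted p = 0.0041) in the proximal colon and by 3.34 ± 0.52 (adjusted p = 0.0098) and 3.19 ± 0.18 (adjusted p = 0.00075) in the distal colon. Tgfb1 rose by 1.38 ± 0.14 (adjusted p = 0.0082) and 0.96 ± 0.11 (adjusted p = 0.0043) and Tgfb3 fell by -1.59 ± 0.18 (adjusted p = 0.010) and -1.29 ± 0.11 (adjusted p = 0.0020). In proximal GA3T no gene of the antagonist, coreceptor, activin or regulator lists passed, and in distal GA3T no gene of any list passed. There the smallest p of the lists belonged to Bmp7 (1.276), Id2 (-1.12) and Inhba (2.12).

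The Cre is not expected to act in goblet cells, and no member passed there in any of the 4 goblet cell comparisons. In proximal GS4M2 cells 9 members were tested and 0.325% of 13246 genes were called, and in proximal GA3M2 cells 9 members and 0.0899% of 13346 genes. In both distal comparisons 8 members were tested and 0% of genes were called. In those, limma and edgeR called 0 genes each, DESeq2 147 in GS4M2 and 240 in GA3M2, and 353 and 539 genes had an unadjusted p under 0.05 with at least a 2-fold change. Members whose libraries did not overlap numbered 3 higher and 1 lower in proximal GS4M2 (25% and 25.2% of genes), 0 and 6 in distal GS4M2 (23.1% and 22.6%), 3 and 3 in proximal GA3M2 (26% and 26.1%) and 1 and 3 in distal GA3M2 (22.1% and 22.2%).

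Bmpr1a was lower in every knockout library of the goblet cells, in GS4M2 as in GA3M2, without passing the test. The share of all genes lower in all of these libraries was not computed. It read 1846 and 2015 in proximal GWTM2 against 1468 and 1586 in GS4M2 (-0.34 ± 0.10, limma adjusted p = 0.20), and 1966 and 2131 against 1572 and 1336 in GA3M2 (-0.50 ± 0.17, adjusted p = 0.28). The distal libraries read 1659.7 and 1936 against 1374 and 1500.2 in GS4M2 (-0.32 ± 0.13, adjusted p = 0.47) and 1588 and 1868 against 1372 and 1410.0 in GA3M2 (-0.31 ± 0.15, adjusted p = 0.49). Smad4 lay above control in both GA3M2 groups, at 2638 and 2692 against 2027 and 1780.2 in the proximal colon (0.49 ± 0.17, adjusted p = 0.28) and 3364 and 3949 against 2698 and 2693 in the distal colon (0.44 ± 0.14, adjusted p = 0.38). In GS4M2 its log2 fold changes were 0.02 and -0.09. No GS4M2 or GA3M2 library had Xist RNA while 1 of the 2 GWTM2 libraries of each segment had it, so that a block for Xist RNA sets 1 control against 2 knockout libraries. With it no member passed: Bmpr1a was at -0.40 (limma, adjusted p = 0.24) and -0.43 (adjusted p = 0.11) in proximal and distal GS4M2 and at -0.56 (adjusted p = 0.84) and -0.43 (adjusted p = 0.32) in GA3M2, and Smad4 in GA3M2 at 0.58 (adjusted p = 0.82) and 0.44 (adjusted p = 0.29). The 7 goblet cell markers summed to 29578 to 61172 RPM in the GWTM2 libraries of both segments, to 35225 to 47656 in GS4M2 and to 8878 to 20978 in GA3M2, all GA3M2 libraries lying lower. The leukocyte markers, of which 1 to 6 of 9 were listed, summed to 2.58 to 7.42, 2.17 to 5.85 and 24.8 to 36.5 RPM. Their part in the GA3M2 values was not tested.

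The remaining members of the goblet cells apart from Acvr2b and Smad9 had log2 fold changes between -0.37 and 0.37. Acvr2b read 183 and 152 in proximal GWTM2 and 108 and 51.7 in GA3M2 (-1.15 ± 0.40, limma adjusted p = 0.28), and was at 0.07, 0.08 and -0.26 in the other 3 comparisons. Acvr2a, which fell in GS4T stroma, was at -0.02, -0.31, -0.14 and -0.21 (adjusted p = 0.97, 0.53, 0.74 and 0.72). Smad9 had 0 to 24 normalized counts, and its 0 in 1 proximal GS4M2 library allows up to 3 reads by counting error alone. Its log2 fold change was -2.02 ± 1.32 in proximal GS4M2 (limma, adjusted p = 0.49), where the groups overlapped. In proximal GA3M2 it was -1.25 ± 0.68 (adjusted p = 0.41), with both knockout libraries lower. In distal GA3M2 it was under the mean of 10 that a gene needed to be tested.

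In organoids at 12 h no member passed for either interleukin, with 8 members tested and 0.0542% of 12913 genes called for IL-1 and 0.0385% of 12977 for IL-17A. The libraries of each group lay far apart, and they lay apart by Xist RNA. Over the 9 libraries at 12 h, Bmpr2 was at 49.6 to 56.4 RPM in the 4 without Xist RNA and 75.8 to 87.9 in the 5 with it, and Smad5 was at 72.1 to 80.8 and 102 to 114. Smad1 had the opposite order, at 54.8 to 56.7 and 43.0 to 45.8. Bmpr1a, Acvr1 and Smad4 were also higher without overlap in the libraries with Xist RNA, and only Acvr2a and Acvr2b overlapped. These ranges are a description without a test, and the share of all genes separated in this way was not computed. The 5 libraries with Xist RNA include the nearly identical pair of each treated group. Within the libraries without Xist RNA, 1 treated against 2 controls, the log2 difference of Bmpr2 was 0.07 for IL-1 and -0.10 for IL-17A, and with Xist RNA, 2 against 1, it was 0.26 and 0.23.

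At 72 h Bmpr2 rose with IL-1. It read 827, 1144 and 1124 in controls and 1542, 1307 and 1549 with IL-1, without overlap (0.52 ± 0.17, limma adjusted p = 0.047), the only 1 of 8 members to pass, where 38.4% of 13023 genes passed the adjusted p. No member reached a 2-fold change as well, where 23% of genes did. With IL-17A it read 825, 1138 and 1122 in controls and 1805, 1496 and 1684, again without overlap, and did not pass (0.70 ± 0.18, adjusted p = 0.051). For IL-17A no member passed, where 7.94% of 13073 genes were called and 10.8% passed the adjusted p. Bmpr2 no longer passed with IL-1 without 5 of the 6 libraries taken out singly (adjusted p = 0.080 to 0.12, log2 fold change 0.37 to 0.60), and passed without IL-1 library 2 (adjusted p = 0.045). With the nearly identical control libraries averaged the adjusted p was 0.082. With Xist RNA as a block it was 0.55 (adjusted p = 0.058) for IL-1 and 1.01 (adjusted p = 0.20) for IL-17A, whose 3 treated libraries all lack Xist RNA while 2 of the 3 controls have it.

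The other members did not pass at 72 h. Smad5 had the lower mean with both interleukins, at 1101, 1674 and 1674 in controls against 1085, 1048 and 884 with IL-1 (-0.54 ± 0.20, limma adjusted p = 0.065) and 1105, 1113 and 842 with IL-17A (-0.52 ± 0.22, adjusted p = 0.13). The lowest control was the one without Xist RNA, and against it alone the log2 difference of Smad5 was -0.17 for IL-1 and -0.12 for IL-17A in the libraries without Xist RNA. Among the libraries with Xist RNA, 1 treated with IL-1 against 2 controls, the log2 difference of Smad5 was -0.67, and no IL-17A library had Xist RNA. Smad1 had the higher mean, at 828, 602 and 651 against 980.0, 805 and 844 (0.34 ± 0.17, adjusted p = 0.15) and 1048, 995 and 968 (0.55 ± 0.17, adjusted p = 0.072). Acvr1 was higher in every library of both treatments on this scale (0.39 ± 0.20, adjusted p = 0.15, and 0.34 ± 0.20, adjusted p = 0.25). Every library was higher in 2 of 8 members with IL-1 (27% of genes) and in 5 of 8 with IL-17A (21.7%). These separations depended on the scaling. On RPM only Bmpr2 was higher in every library, 1 of 8 members with each interleukin, at 77.6 to 80.3 with IL-1 and 81.8 to 96.3 with IL-17A against 54.7 to 75.9 in controls. On that scale Acvr1 overlapped, with 14.2 in an IL-1 library and 13.7 in an IL-17A library against 13.6, 17.2 and 16.6 in controls, and 4 of 8 members were lower in every library with IL-1 and 1 of 8 with IL-17A, instead of 1 and 0. The shares of all genes separated on RPM, or lower on normalized counts, are not given here, so these counts are a description only. Both treatments share these controls, 2 of which hold the reads of libraries labelled 12 h.

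**Figure D5:**
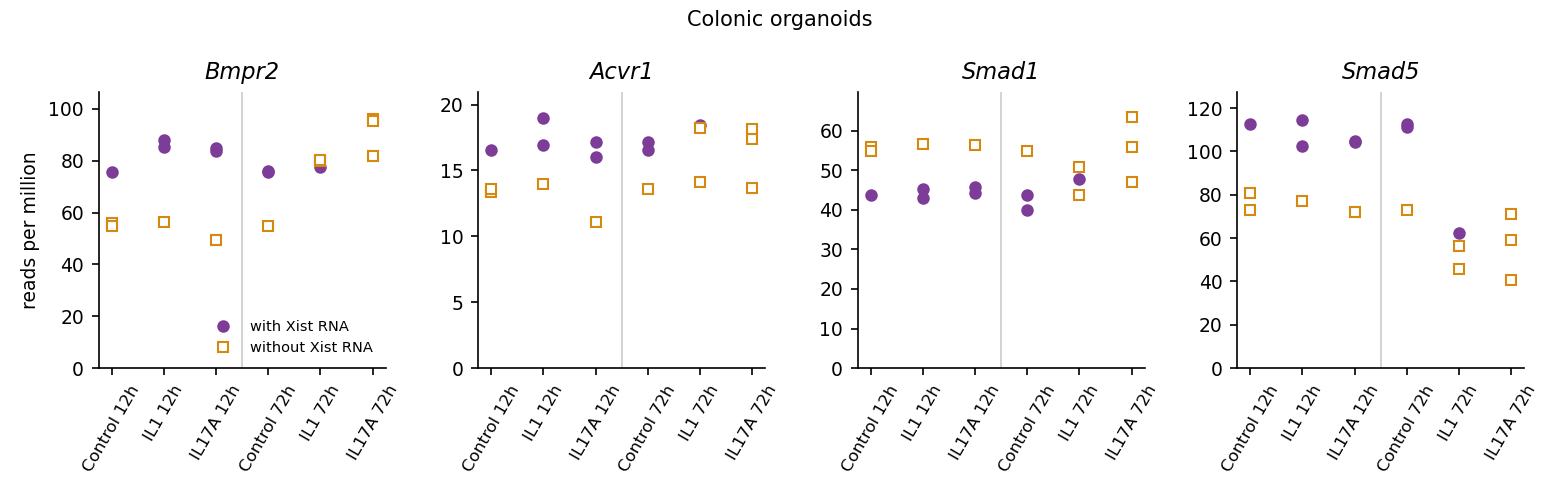
RPM of Bmpr2, Acvr1, Smad1 and Smad5 in colonic organoids, 1 point per library (filled circles with Xist RNA, open squares without), 3 libraries per group; 2 control libraries appear at both times because they hold the same reads. At 12 h the 2 kinds of library separate in all 4 genes, and at 72 h Bmpr2 is higher in all libraries with either interleukin.

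Likeness of pattern was described over the means of all 18 groups, on log2 of RPM, among 11935 genes. The 3 genes most like Smad4 were Tpm3 (Pearson r = 0.89), Rpl34 (0.87) and Pank2 (0.87), and those most like Bmpr1a were Ppp2r3a (0.91), Gm43660 (0.90) and Ap4e1 (0.89). For Acvr2a they were Sos2 (0.81), Gk5 (0.81) and Phykpl (0.80), and for Smad1 Ttyh1 (0.87), Sipa1l2 (0.86) and Cdc42ep4 (0.83). For Bmpr2 they were Anxa6 (0.99), Ppfibp1 (0.99) and Peg3 (0.99). Among the members themselves Bmpr2 was close to Acvr1 (0.90) and Smad5 (0.83), and Smad4 ran against Bmpr2 (-0.78). The 18 groups are 3 kinds of cells, and these values carry no test. Correlations within 1 kind of cells were not computed, so how far the values follow the cell type was not tested.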

How the data were processed

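RNA sequencing libraries of sorted Gli1-tdTomato+ cells, sorted Muc2-mCherry+ cells and colonic organoids were analysed from 12 tables. The deposited values are a signal: gene read counts that the authors aligned with STAR 2.5.3 (mm10, unique reads) and divided by DESeq2 1.28.1 size factors within each table. The counting program, annotation and strand setting are not given in the sources used here. All values came out as whole reads (tolerance 0.1 of a read) once the step of each library was found. For GS4M2, 4 rows without a gene name, with 20.9% to 28.2% of the values, were left out.

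Each knockout or treatment was compared with its control within its table on log2(value + 1), so that fold changes of low genes are understated, for genes with a mean of at least 10, with limma 3.58.1 (trended variance, R 4.3.3) and Benjamini-Hochberg adjustment over all genes tested, two-sided. A call needs an adjusted p under 0.05 and at least a 2-fold change. Differences between segments, between knockouts and between control cells were fitted over the libraries together. These fits, and those over all libraries of a cell type, took proximal and distal libraries as independent, without a term for the mouse. Those fits used whole reads divided by median-of-ratios size factors computed over all libraries in the fit. RPKM used GENCODE exon lengths (GRCm38). p-values measure the spread between libraries, which may be technical. Planned tests of 72 h against 12 h were not made because 2 control libraries are shared by both times. The alternatives tried were other pseudocounts (0.1 and 10), other filters (none, or a mean of 50), upper-quartile scaling, unadjusted p, edgeR 4.0.16 and DESeq2 1.42.0 on the whole reads, a replicate block, one fit over all libraries of a cell type and leaving out each library. A block for Xist RNA (over 10 RPM), averaging of near-identical organoid libraries and the segment contrast in GWTT were chosen after seeing the data. Members, lists and tests were chosen with earlier results of these data known. All members were named, and of the pathway lists, the Id genes, Smad6, Smad7, Bambi, the called genes but 1, which is not reported here, and, where none was called, the 3 with the smallest p; Bmp4 was named after its values were seen. The fitting scripts were tested on simulated data.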

Additional observations from a re-analysis of the deposited data

Results flagged for a closer look

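Bmpr1b in the distal colon was marked because the effects of the 2 knockouts differed by a test of the difference itself. GS4T libraries read 164 and 135 normalized counts against 64.5 and 90.0 in GWTT, and GA3T libraries read 45.1 and 53.2 against 73.6 and 102. The difference, GS4T minus GA3T, was 1.78 ± 0.38 on the log2 scale (limma over 12 libraries, adjusted p = 0.045), and edgeR gave 1.80 (adjusted p = 0.042). The adjusted p rose above 0.05 when any distal GS4T, distal GA3T or distal GWTT library or either proximal GS4T library was left out (0.062 to 0.17), with values between 1.65 and 1.92. The cause of the difference was not tested.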

How the results depend on the processing

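Over 165 single results of the members and 2458 values of them under other settings, 2316 kept their sign and side of the threshold, 14 lost a call, 28 gained one and 100 changed sign while called in neither fit; no called value changed sign. Members called numbered 1 (Acvr2a) instead of 0 in proximal GA3T with the unadjusted p, DESeq2 or all libraries of the cell type, and 2 (Acvr2a and Smad9) instead of 0 in distal GA3T with the unadjusted p, DESeq2 or the Xist block, which was chosen after seeing the data and leaves 1 GA3T library against 2 controls. In proximal GA3M2 it was 1 (Acvr2b) instead of 0 with the unadjusted p or the replicate block (adjusted p = 0.041). The causes were not tested. Leaving out each library gave 0 to 2 members called in proximal GS4T, 1 to 3 in distal GS4T, 0 to 2 in distal GA3T, 0 to 1 in proximal GA3M2 (1 without GA3M2 library 1), 0 to 1 for GS4T against GA3T in the proximal colon (Smad4, without either distal GS4T library) and in the distal colon, and 0 to 2 for proximal against distal GWTT. Smad4 then ranged from -1.21 to -0.97 in proximal GS4T and from -1.35 to -0.57 in distal GS4T (adjusted p up to 0.16). With edgeR the distal values of Acvr2a and Smad4 in GS4T had adjusted p of 0.058 and 0.059.

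Counts over all genes moved more. Proximal GA3T had 55 calls, 0 with edgeR, 6 and 87 with a pseudocount of 0.1 and 10, 253 with the replicate block, 714 with all libraries and 969 with DESeq2. Distal GA3T had 0, 11 with a pseudocount of 10, 62 with the replicate block, 72 with all libraries, 600 with the Xist block and 776 with DESeq2. Calls went from 43 to 260 in proximal GS4M2 and from 12 to 699 in proximal GA3M2 with the replicate block, and to 270 and 431 with DESeq2. With the Xist block, 1 control against 2 knockout libraries, they were 137 and 82 in the proximal and 225 and 658, instead of 0 and 0, in the distal colon. IL-17A at 72 h had 1038, 4 with the replicate block, 5 with the Xist block, 2 with near-identical libraries averaged, 2311 with DESeq2 and 2497 with all libraries. IL-1 at 72 h had 2998 and 1513 with the replicate block. At 12 h IL-1 had 7 and 100 with the block, and IL-17A 5 and 120. Same-numbered libraries, 2 pairs a comparison, correlated between -0.06 and 0.30 in sorted cells and between -0.19 and 0.20 in organoids at 72 h. The numbers were not taken as pairs there. In organoids at 12 h the correlation was 0.62 to 0.64. The main fit at 12 h leaves this possible pairing out, and only the replicate block takes it in.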

Other observations

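In organoids at 72 h, where no member reached a 2-fold change, other genes of the pathway did. With IL-1, the ligand Bmp2 rose by 2.69, the target gene Id1 by 1.62, the inhibitory Smad7 by 1.25, the type I receptor Acvrl1 by 1.48, Acvr1b by 1.15, Skil by 1.23 and Tgfb1 by 1.42, and Tgfbr1 fell by -1.57, Bmp7 by -2.46 and Rgmb by -1.46 (log2 fold changes, limma, all with an adjusted p under 0.05). With IL-17A, Bmp2 rose by 2.22, Acvrl1 by 1.72, Acvr1b by 1.11, Skil by 1.30 and Tgfb1 by 1.67. Of these 5 calls with IL-17A, 0 remained with the replicate block, the Xist block or near-identical libraries averaged, where 4, 5 and 2 of 1038 calls over all genes were made, and of the 10 calls with IL-1, 6, 10 and 8 remained. Both treatments share their controls, 2 of which hold the reads of libraries labelled 12 h. In goblet cells of proximal GS4M2 mice, Bmp8b rose by 2.73 and Skil, a repressor of Smad activity, by 1.58 (both adjusted p = 0.039).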
